A study of Homo sapiens with 8 samples.

Results

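The genes described here encode the signaling chains of the T-cell receptor (TCR) and the surface proteins that work beside it. They are CD3D, CD3E, CD3G, CD247, CD4, CD8A, CD8B, CD2, CD5 and PTCRA, 10 genes chosen by name out of the 57189 in the deposited count tables. These genes and the lists below were chosen with earlier results of these data known. Their counts beside the shares of all genes are therefore descriptions and not independent tests. Messenger RNA was sequenced from 2 human T-cell acute lymphoblastic leukemia (T-ALL) cell lines, CUTLL1 (CUTTL1 in the labels) and TIB153, each with PKF118-310 and as a control. PKF118-310 is a small molecule that blocks the binding of β-catenin to TCF transcription factors, and it was used at 1 µM for 24 h in both lines. The 4 groups were therefore CUTLL1 with PKF118-310, CUTLL1 control, TIB153 with PKF118-310 and TIB153 control cells, all grown in the same serum-containing medium. The control cells are called placebo-treated in the study's text. In the study's viability assay, both lines were less viable than control cells after 24 h with PKF118-310 at 1 µM. The study's blots of both lines after 24 h with PKF118-310 showed PARP cleavage, which it uses as a marker of apoptosis. The treated libraries may therefore hold RNA of dying cells, and whether this bears on the ratios below was not tested. Each group held n = 1 library, sequenced in 2 lanes that were summed, so no difference within a line has a replicate check, and line and library cannot be told apart. The labels describe TIB153 no further than as a human T-ALL line.

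The TCR recognizes peptide on MHC molecules through variable chains that have almost no cytoplasmic tail. Signals leave the complex through the invariant CD3γ, CD3δ and CD3ε chains (CD3G, CD3D, CD3E) and the ζ chain (CD247), whose tails carry phosphorylation motifs called ITAMs. CD4 and CD8 bind MHC class II and class I and bring the kinase LCK to the complex. In the thymus, a precursor with a new TCR β chain first pairs it with the pre-TCR α chain (PTCRA), the product of a Notch-responsive gene. The cell then passes from a stage with neither coreceptor to a double-positive (DP) stage with both, and T-ALL cells are commonly classed by where in this order their surface proteins place them.

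The libraries held 7609427 to 8140391 counts, of which 19674 to 22120 genes took at least 1, and 3 counts corresponded to 0.369 to 0.394 CPM (reads of a gene relative to the size of its library). The lanes of a library differed by no more than sampling noise, with a chi-square per degree of freedom of 0.990 to 1.02. All 9 of 9 T-cell markers were detected in each library. Of them, only CD7, LCK and BCL11B lie outside the genes described here. The summed level of the markers was 1970 and 2308 CPM in PKF118-310 and control CUTLL1 cells and 2441 and 2596 CPM in PKF118-310 and control TIB153 cells. Of 6 B-cell markers only CD79A passed 3 counts, at 13.6 and 10.8 CPM in PKF118-310 and control CUTLL1 cells and 104 and 79.0 CPM in PKF118-310 and control TIB153 cells, while CD22 and MS4A1 were at 0 in all 4 libraries. Myeloid markers summed to at most 3.64 CPM and NK markers to at most 5.32 CPM. The erythroid markers HBA1 and HBA2 were at 0 in all 4 libraries.

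All 10 of 10 genes passed the filter on low counts, which kept 13280 genes. Their positions on hg38 were taken from GENCODE release 29. CD3E, CD3D and CD3G share 1 cluster on chromosome 11, where the starts of CD3D and CD3G lie 1600 bases apart and face away from each other, and CD3E ends 22779 bases from the CD3D end. CD8A and CD8B lie 6943 bases apart on chromosome 2, and CD4, CD2, CD247, CD5 and PTCRA lie on chromosomes 12, 1, 1, 11 and 6. No exonic base of 9 of these genes was shared with another annotated gene, and 5.26% of those of CD8B overlapped a pseudogene on the opposite strand. CD8B has a near-identical copy, CD8B2, which held 0 reads with PKF118-310 and 3 in control CUTLL1 cells and 0 reads in both TIB153 libraries, so counts of CD8B are uncertain to the extent that the counting could divide reads between the copies.

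Promoters were looked up because TCF/LEF, RUNX, E protein and GATA factors are known regulators of T-cell genes. RefSeq promoters (GRCh38.p14) were matched for 5 of the 10 genes, CD3D, CD247, CD8A, CD2 and PTCRA, with 4 starts for CD8A. CD3E, CD3G, CD4, CD8B and CD5 had no match. The 250 bases before each start were searched on both strands for 4 motifs, and no match overlapped another in the printed sequences. The TCF/LEF motif was searched as CTTTGA, which 11.2% of the 35116 promoters in the same table held. The RUNX motif was searched as TGTGGT, which 11.0% held. The E protein motif was searched as CAGCTG, which 13.99% held. The GATA motif was searched as AGATAA, which 9.17% held. The sequences of CD3D, CD247, CD2 and PTCRA are printed 5′ to 3′ with every match in capitals.
CD3D, chr11:118342706-118342955, minus strand: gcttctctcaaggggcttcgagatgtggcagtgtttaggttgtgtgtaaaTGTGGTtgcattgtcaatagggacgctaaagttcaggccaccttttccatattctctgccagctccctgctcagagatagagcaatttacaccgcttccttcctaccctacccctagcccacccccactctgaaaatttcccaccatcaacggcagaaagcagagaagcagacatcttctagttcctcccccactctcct
CD247, chr1:167518530-167518779, minus strand: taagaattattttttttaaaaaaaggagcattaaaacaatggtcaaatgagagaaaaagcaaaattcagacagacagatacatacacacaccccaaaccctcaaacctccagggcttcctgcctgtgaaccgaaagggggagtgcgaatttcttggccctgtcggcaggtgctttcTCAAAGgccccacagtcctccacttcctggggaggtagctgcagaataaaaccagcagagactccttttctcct
CD2, chr1:116754180-116754429, plus strand: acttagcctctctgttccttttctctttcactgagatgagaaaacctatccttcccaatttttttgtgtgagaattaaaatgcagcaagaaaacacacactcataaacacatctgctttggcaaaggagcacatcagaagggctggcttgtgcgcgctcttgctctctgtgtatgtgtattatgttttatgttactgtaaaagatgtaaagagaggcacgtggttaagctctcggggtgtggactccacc
PTCRA, chr6:42915803-42916052, plus strand: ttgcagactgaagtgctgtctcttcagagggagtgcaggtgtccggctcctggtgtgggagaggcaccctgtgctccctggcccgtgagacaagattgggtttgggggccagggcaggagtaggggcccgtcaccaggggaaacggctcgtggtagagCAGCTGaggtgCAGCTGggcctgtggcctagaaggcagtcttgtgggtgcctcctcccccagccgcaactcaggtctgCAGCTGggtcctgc
CD3D held 1 RUNX match, whose first base lies 200 bases before the start. CD247 held the only TCF/LEF match of the 5 genes, on the opposite strand, 74 bases before the start. PTCRA held 3 E protein matches, 92, 81 and 14 bases before its start, and 0.0997% of all promoters held 3 or more of them, a count of copies made after the matches were seen. No match was found in CD2, 2 of the 4 CD8A starts held 1 E protein match each, and no AGATAA was found in any. A match is a description of the letters and was not tested as a binding site.

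The first comparison asked how these genes differed between cells with PKF118-310 and control cells within each line. In CUTLL1, 4 of 10 genes were at least 2-fold lower with an interval that excluded no change, namely CD4, CD8B, CD2 and PTCRA, where 2.21% of the 13280 genes tested were called lower. None of the 10 was called higher, where 4.80% of all genes were. By counting error alone, all 10 lay below control in CUTLL1 against 23.9% of all genes, and none lay above it against 23.3%. Such intervals narrow as counts rise, so a small ratio can lie beyond them in a gene with many reads. The shares over all genes, here and below, were not matched for level. With libraries scaled by total counts, 9 of 10 lay below control, against 20.7% of all genes, and CD3E was within counting error. In TIB153, 0 of 10 genes were called 2-fold lower and 0 were called higher, against 2.12% and 5.47% of all genes. By counting error alone, 3 of 10 lay below control in TIB153 (CD3G, CD247 and CD2), against 28.7% of all genes, and 2 lay above it (CD3D and CD5), against 25.2%. The median log2 ratio over the 10 genes was −0.55 in CUTLL1 and −0.20 in TIB153, where the median over all genes tested was 0.00 and −0.01. Levels below are CPM scaled by TMM, ratios are log2 of PKF118-310 over control with a pseudocount of 0.5 counts, and their 95% intervals cover counting error only. Because each library is bulk RNA, fewer cells of a kind and less RNA per cell cannot be told apart.

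**Figure D1:**
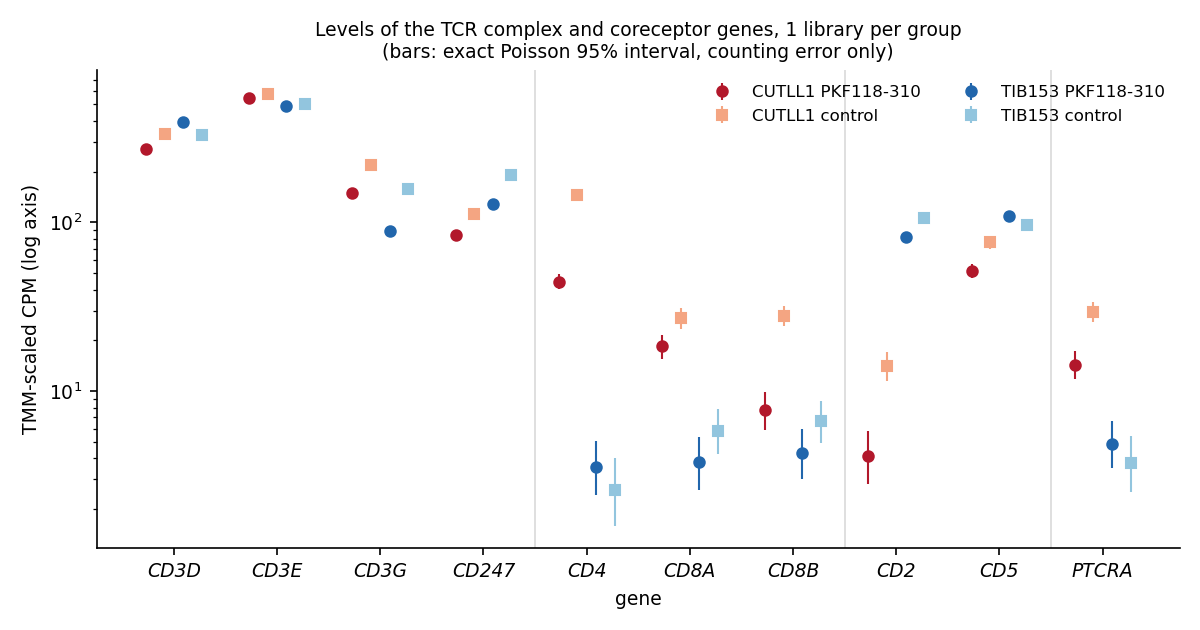
Level of each gene in TMM-scaled CPM on a log axis, with 1 point per library and exact Poisson 95% intervals. CD3D, CD3E, CD3G and CD247 lie above 80 CPM in all 4 libraries, whereas CD4 lies at 44.6 and 146 CPM in PKF118-310 and control CUTLL1 cells and at 3.57 and 2.60 CPM in PKF118-310 and control TIB153 cells; genes of different length are not comparable by height.

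CD3ε pairs separately with CD3δ and with CD3γ, so it is needed by both CD3 dimers. CD3E lay at 546 CPM with PKF118-310 against 575 CPM in control CUTLL1 cells, and at 492 CPM with PKF118-310 against 502 CPM in control TIB153 cells. Its ratios were −0.08 (−0.14 to −0.01) in CUTLL1 and −0.03 (−0.09 to 0.03) in TIB153, the closest to 0 of the 10 genes in each line. CD3D, the δ chain, lay at 274 CPM with PKF118-310 against 334 CPM in control CUTLL1 cells. In TIB153 it lay the other way, at 395 CPM with PKF118-310 against 330 CPM in control cells. The CD3D ratios were −0.28 (−0.37 to −0.20) in CUTLL1 and 0.26 (0.19 to 0.34) in TIB153. Only 1.41% of all genes were lower in CUTLL1 and higher in TIB153 beyond counting error, as CD3D and CD5 were (2 of 10).

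CD3G, the γ chain, was lower in both lines. It lay at 149 CPM with PKF118-310 against 218 CPM in control CUTLL1 cells, and at 88.8 CPM with PKF118-310 against 158 CPM in control TIB153 cells. The levels of both treated libraries were below those of both controls, and the ratios were −0.55 (−0.66 to −0.44) in CUTLL1 and −0.83 (−0.96 to −0.70) in TIB153. CD3G was the gene of this set with the smallest p across the lines (log2 change −0.69 ± 0.13 SE, n = 2 lines, adjusted p = 0.00503 by edgeR's quasi-likelihood test with Benjamini-Hochberg adjustment). That call was lost in edgeR without cell line as a block (adjusted p = 0.742), and the adjusted p of CD3G ranged from 1.37e-05 to 0.742 over the settings. CD3D and CD3E did not pass the same edgeR test, at −0.01 ± 0.14 (adjusted p = 0.972) and −0.05 ± 0.12 (adjusted p = 0.816). The neighbours CD3D and CD3G thus did not keep their proportion within a library. CD3G took 35.3% (33.7 to 36.9) of the reads of CD3D and CD3G with PKF118-310 against 39.6% (38.0 to 41.1) in control CUTLL1 cells, and 18.4% (17.2 to 19.6) with PKF118-310 against 32.4% (30.9 to 33.9) in control TIB153 cells. These are exact Clopper-Pearson 95% intervals, they do not overlap within either line, and they depend on no scaling between libraries.

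The ζ chain carries most of the ITAMs of the complex and limits its assembly at the surface. CD247 lay at 83.8 CPM with PKF118-310 against 112 CPM in control CUTLL1 cells, and at 129 CPM with PKF118-310 against 191 CPM in control TIB153 cells. Its ratios were −0.41 (−0.56 to −0.27) and −0.56 (−0.68 to −0.45) in CUTLL1 and TIB153, and it was lower in 2 of 2 lines. CD247 fell across the lines in edgeR's quasi-likelihood test (−0.49 ± 0.12 SE, adjusted p = 0.0211). That call was lost in 3 of the 8 other settings tried, with an adjusted p of 0.138 in DESeq2's Wald test, 0.0607 in edgeR on lane 1 alone and 0.806 in edgeR without cell line as a block, and its adjusted p ranged from 0.0049 to 0.806 over the settings. Within the signaling chains, CD247 took 7.96% (7.40 to 8.56) of reads with PKF118-310 against 9.02% (8.44 to 9.62) in control CUTLL1 cells, and 11.7% (11.1 to 12.4) with PKF118-310 against 16.2% (15.4 to 16.9) in control TIB153 cells, and the intervals overlap in CUTLL1 and not in TIB153.

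**Figure D2:**
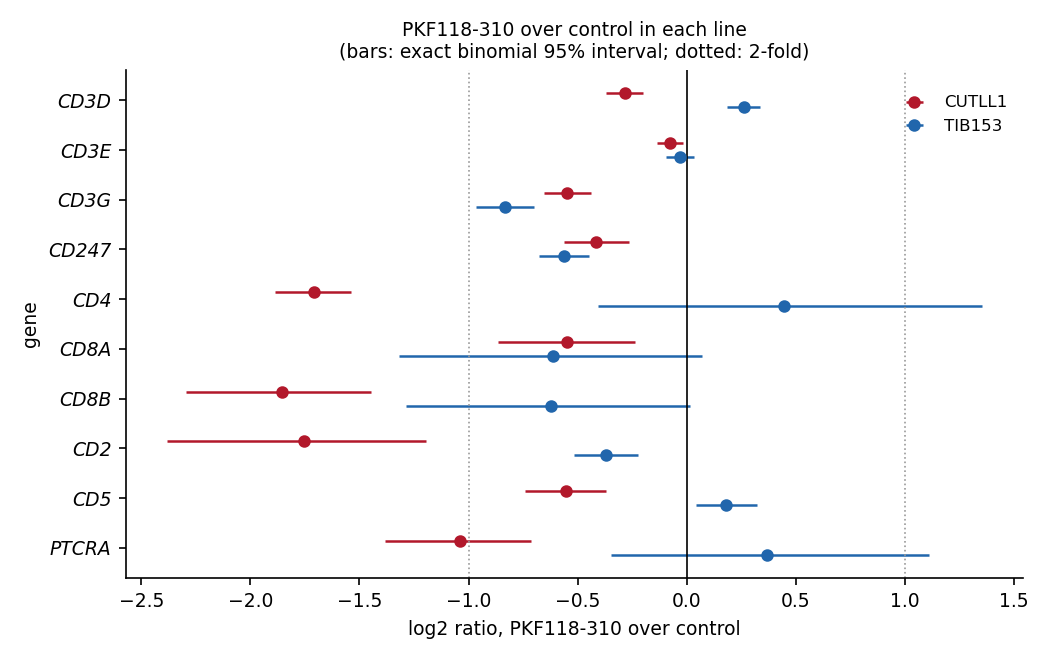
Log2 ratio of PKF118-310 over control for each gene in CUTLL1 and TIB153, with exact binomial 95% intervals that cover counting error only and dotted lines at 2-fold. CD4, CD8B and CD2 lie between −1.85 and −1.71 in CUTLL1. CD3G, CD247 and CD2 lie below 0 in both lines beyond counting error, and CD3D and CD5 lie on opposite sides of 0 in the lines.

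CD4 showed the widest range of levels. It lay at 44.6 CPM (358 counts) with PKF118-310 against 146 CPM (1082 counts) in control CUTLL1 cells, a 3.27-fold lower level with a ratio of −1.71 (−1.89 to −1.54). In TIB153 it held 30 counts (3.57 CPM) with PKF118-310 against 20 counts (2.60 CPM) in control cells, and the ratio of 0.45 (−0.40 to 1.35) was within counting error. The TIB153 ratio was 1.16 in lane 1 and −0.35 in lane 2, so no direction could be read at this depth. Across the lines CD4 did not pass edgeR's quasi-likelihood test (−1.22 ± 0.51 SE, adjusted p = 0.227), although it was called in 3 of the 8 other settings, without the filter on low counts, without the robust option and on lane 2 alone, and its adjusted p ranged from 0.000101 to 0.903 over the settings.

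CD8A encodes the α chain that forms CD8αα and CD8αβ dimers. It lay at 18.4 CPM (148 counts) with PKF118-310 against 27.0 CPM (200 counts) in control CUTLL1 cells, with a ratio of −0.55 (−0.87 to −0.23). In TIB153 it held 32 counts (3.81 CPM) with PKF118-310 against 45 counts (5.84 CPM) in control cells, and its ratio of −0.61 (−1.32 to 0.07) was within counting error. CD8A did not pass edgeR's quasi-likelihood test across the lines (−0.57 ± 0.26 SE, adjusted p = 0.162). CD8B encodes the β chain, which is found only in CD8αβ, the coreceptor form of MHC class I-restricted thymocytes. It lay at 7.72 CPM (62 counts) with PKF118-310 against 28.1 CPM (208 counts) in control CUTLL1 cells, 3.61-fold lower with a ratio of −1.85 (−2.29 to −1.45), and this was the lowest ratio of the 10 genes. In TIB153 it held 36 counts (4.29 CPM) with PKF118-310 against 51 counts (6.62 CPM) in control cells, for a ratio of −0.62 (−1.29 to 0.02) that was within counting error. CD8B fell across the lines in edgeR's quasi-likelihood test (−1.33 ± 0.33 SE, adjusted p = 0.0214), a call lost in DESeq2's Wald test (adjusted p = 0.139) and in edgeR without cell line as a block (adjusted p = 0.752), with a range of 0.00026 to 0.752 over the settings.

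The coreceptor genes did not keep their proportions in CUTLL1. CD8B took 29.5% (23.4 to 36.2) of CD8A and CD8B reads with PKF118-310 against 51.0% (46.0 to 55.9) in control CUTLL1 cells, and the intervals do not overlap. In TIB153 the share was 52.9% (40.4 to 65.2) with PKF118-310 against 53.1% (42.7 to 63.4) in control cells. CD4 took 63.0% (58.9 to 67.0) of all coreceptor reads with PKF118-310 against 72.6% (70.3 to 74.9) in control CUTLL1 cells. Only 98 reads with PKF118-310 and 116 in control cells came from the 3 coreceptor genes in TIB153, where CD4 took 30.6% (21.7 to 40.7) and 17.2% (10.9 to 25.4), with intervals that overlap.

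**Figure D3:**
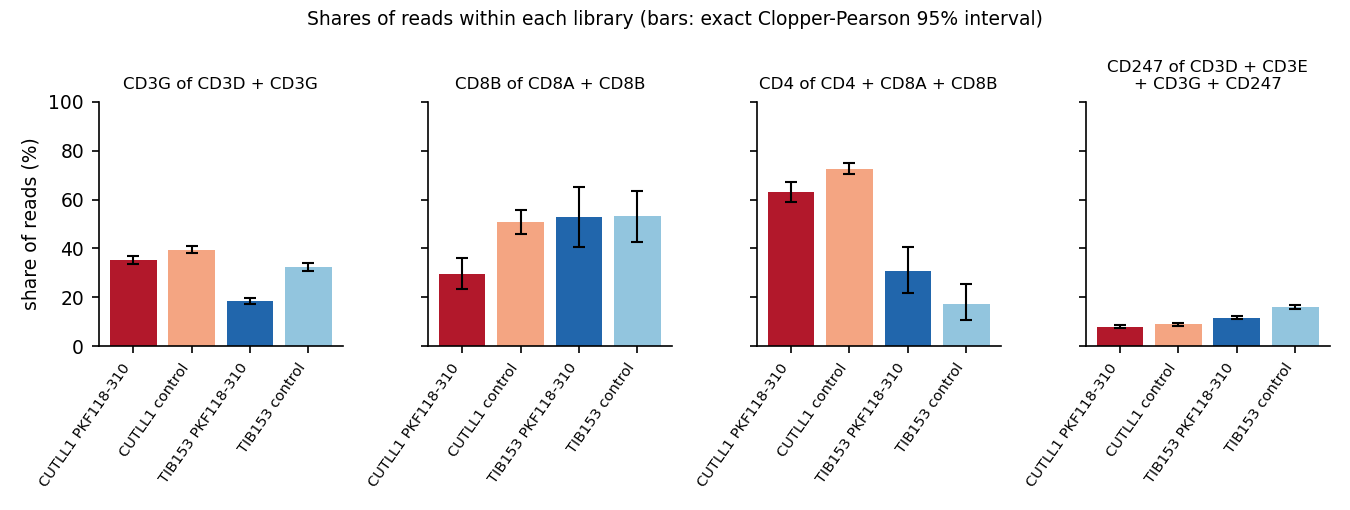
Share of reads (%) taken by CD3G, CD8B, CD4 and CD247 within named groups of genes in each library, with exact Clopper-Pearson 95% intervals. CD3G took 18.4% of CD3D and CD3G reads in TIB153 cells with PKF118-310 and 32.4% in TIB153 control cells; CD8B took 29.5% of CD8A and CD8B reads in CUTLL1 cells with PKF118-310 and 51.0% in CUTLL1 control cells.

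CD2 is an adhesion receptor that binds CD58 on other cells and is acquired early in the T lineage. It lay at 4.11 CPM (33 counts) with PKF118-310 against 14.03 CPM (104 counts) in control CUTLL1 cells, 3.38-fold lower with a ratio of −1.76 (−2.38 to −1.19). In TIB153 it lay at 81.9 CPM (688 counts) with PKF118-310 against 106 CPM (815 counts) in control cells, with a ratio of −0.37 (−0.52 to −0.22). CD2 was thus lower in 2 of 2 lines and did not pass edgeR's quasi-likelihood test across them (−0.82 ± 0.30 SE, adjusted p = 0.127), in which it was called without the filter on low counts (adjusted p = 0.000303) and without the robust option (adjusted p = 0.0393), with a range of 0.000303 to 0.973 over the settings. CD5 is a scavenger-receptor family protein that dampens TCR signaling, and its surface level is known to follow TCR signal strength in thymocytes. It lay at 51.8 CPM with PKF118-310 against 76.1 CPM in control CUTLL1 cells, and at 109 CPM with PKF118-310 against 96.2 CPM in control TIB153 cells. Its ratios were −0.55 (−0.74 to −0.37) in CUTLL1 and 0.18 (0.04 to 0.32) in TIB153, and edgeR's quasi-likelihood test gave −0.17 ± 0.17 SE (adjusted p = 0.553).

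PTCRA lay at 14.3 CPM (115 counts) with PKF118-310 against 29.5 CPM (219 counts) in control CUTLL1 cells. Its ratio of −1.04 (−1.38 to −0.71) was just past the 2-fold limit, and it was not called with total-count scaling (−0.99) or from lane 1 alone (−0.80), which left 3 of 10 genes called lower in CUTLL1 in both cases. In TIB153, PTCRA held 41 counts (4.88 CPM) with PKF118-310 against 29 counts (3.77 CPM) in control cells, and the ratio of 0.37 (−0.35 to 1.11) was within counting error. The lanes gave −0.03 and 0.81, so the TIB153 direction could not be read at this depth. PTCRA did not pass edgeR's quasi-likelihood test across the lines (−0.51 ± 0.34 SE, adjusted p = 0.355).

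With the lines as replicates (n = 2), 3 of 10 genes fell in edgeR's quasi-likelihood test, CD3G, CD247 and CD8B, where 6.78% of all genes fell, and 0 rose, where 6.11% did. The CD8B call rests on CUTLL1 (ratio −1.85), since its TIB153 ratio of −0.62 (−1.29 to 0.02) was within counting error. The p-values of this test rest little on a gene's own spread between the lines. Scaling by total counts moved the share of rising genes among all called genes to 60.0% from 47.4%, and the median of all genes by 0.06 on the log2 scale, and 3 of 10 genes fell under it as well. DESeq2's Wald test with the same block called 1 of 10 (CD3G, adjusted p = 0.0133), where it called 1.88% of all genes lower. Before adjustment, 5 of 10 genes had p under 0.05 in edgeR, where 28.7% of all genes did, and 4 of 10 in DESeq2, where 13.4% did. Counted by the sign in each line, 3 of 10 genes (CD3G, CD247 and CD2) were lower than control in both lines beyond counting error, against 15.7% of all genes.

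The ratios in the lines were then set against each other. The log2 ratio in CUTLL1 minus that in TIB153 was below 0 beyond counting error for 6 of 10 genes, against 14.1% of all genes, and above 0 for 1, against 19.1%. The 6 were CD4 at −2.16 (−2.98 to −1.33), PTCRA at −1.41 (−2.16 to −0.65), CD2 at −1.39 (−1.97 to −0.81), CD8B at −1.23 (−1.97 to −0.50), CD5 at −0.74 (−0.97 to −0.51) and CD3D at −0.54 (−0.66 to −0.43). CD3G was the exception in the other direction, at 0.28 (0.11 to 0.45). For CD247 the difference was 0.15 (−0.04 to 0.33), for CD8A 0.06 (−0.66 to 0.78) and for CD3E −0.05 (−0.13 to 0.04), all within counting error. With 1 library per group there was no test of these differences between the lines, and the intervals hold no variation between cultures.

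The second comparison set the control libraries of the lines beside each other. Of the 10 genes, 4 were at least 2-fold higher in CUTLL1 control than in TIB153 control cells (CD4, PTCRA, CD8A and CD8B), where 6.12% of all genes were, and 1 was at least 2-fold lower (CD2), where 9.45% were. By counting error alone, 6 were higher and 3 lower, against 27.6% and 27.8% of all genes. CD4 lay at 146 CPM in CUTLL1 control against 2.60 CPM in TIB153 control cells, with a log2 ratio of 5.78 (5.18 to 6.53). PTCRA lay at 29.5 CPM in CUTLL1 control against 3.77 CPM in TIB153 control cells, 7.73-fold higher with a log2 ratio of 2.95 (2.41 to 3.58).

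CD8A and CD8B lay at 27.0 and 28.1 CPM in CUTLL1 control against 5.84 and 6.62 CPM in TIB153 control cells. Their log2 ratios were alike, at 2.19 (1.73 to 2.71) and 2.07 (1.63 to 2.55). CD2 ran the other way, with 14.03 CPM in CUTLL1 control against 106 CPM in TIB153 control cells, 7.51-fold lower and at a log2 ratio of −2.91 (−3.22 to −2.62). The chains of the complex lay closer together between the control libraries than these genes did. The log2 ratios of CUTLL1 control over TIB153 control were 0.02 (−0.06 to 0.10) for CD3D, 0.20 (0.13 to 0.26) for CD3E, 0.47 (0.36 to 0.57) for CD3G and −0.77 (−0.90 to −0.65) for CD247, and CD5 stood at −0.34 (−0.50 to −0.18). Beyond counting error, CUTLL1 control cells thus read higher for CD4, CD8A, CD8B, PTCRA, CD3G and CD3E and lower for CD2, CD247 and CD5, with 1 library of each line.

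**Figure D4:**
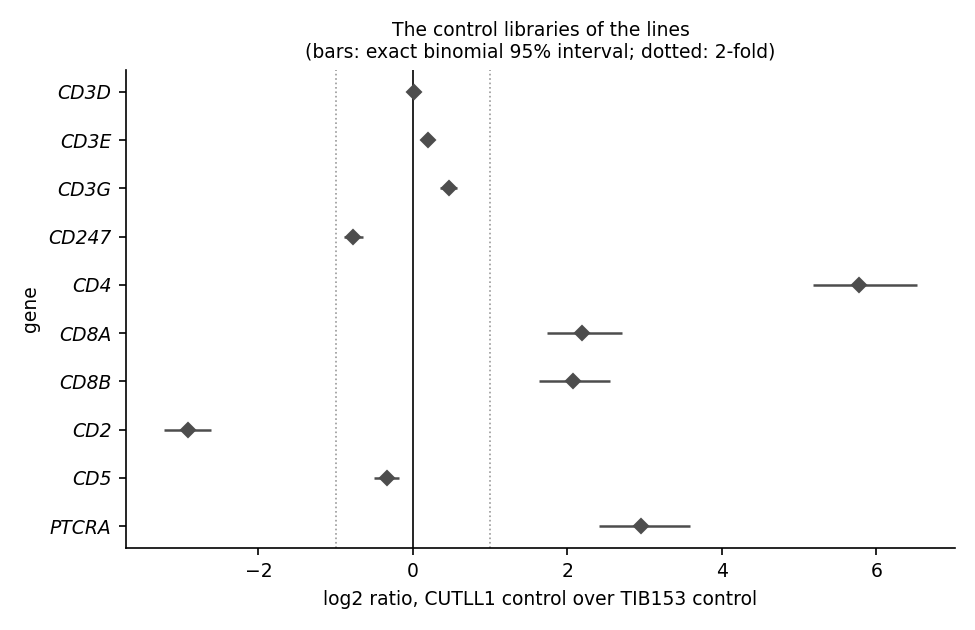
Log2 ratio of CUTLL1 control over TIB153 control for each gene, with exact binomial 95% intervals and dotted lines at 2-fold. CD4 lies at 5.78, PTCRA at 2.95, CD8A at 2.19 and CD8B at 2.07, CD2 lies at −2.91, and CD3D at 0.02 is within counting error.

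Levels of different genes were compared per kilobase of exon (CPM per kb). CD3D was highest in all 4 libraries, at 295 and 359 CPM per kb in PKF118-310 and control CUTLL1 cells and at 425 and 355 CPM per kb in PKF118-310 and control TIB153 cells. CD3E was next in all 4, at 192 and 202 CPM per kb in PKF118-310 and control CUTLL1 cells and at 173 and 177 CPM per kb in PKF118-310 and control TIB153 cells. This order rests on exon length, since per kilobase of coding sequence CD3E ranked 1 and CD3D ranked 2 in all 4 libraries. In CUTLL1 control cells CD3G followed at 56.9 and CD4 at 31.8 CPM per kb, and the levels of CD247 (27.7), PTCRA (25.3) and CD5 (23.6) CPM per kb overlapped with their neighbours in that order. Per kilobase of coding sequence CD247 ranked above CD4 there, at 227 against 106 CPM per kb. In TIB153 control cells CD2 took the third place at 63.0 CPM per kb, ahead of CD247 at 47.3 and CD3G at 41.2 CPM per kb, an order that also turns round per kilobase of coding sequence, where CD2 ranked 5 at 98.9, below CD247 at 388 and CD3G at 269 CPM per kb. CD2 ranked 9 in CUTLL1 control cells at 8.36 CPM per kb, where its interval overlapped that of CD8A at 7.42 CPM per kb. By coding length CD2 ranked 10 there at 13.1 CPM per kb, and CD8A ranked 7 at 38.3 CPM per kb. The lowest level in both TIB153 libraries was that of CD4, at 0.779 CPM per kb with PKF118-310 and 0.567 CPM per kb in control cells, and its interval overlapped that of CD8A with PKF118-310 but not in control cells.

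The chains that the CD3 proteins carry were read from the TCR constant genes, a list of 6 of which 5 passed the filter on low counts. Of these 5, 2 fell across the lines and none rose in edgeR's quasi-likelihood test, where 6.78% of all genes fell and 6.11% rose. TRBC1, a β-chain constant gene, lay at 604 CPM with PKF118-310 against 1090 CPM in control CUTLL1 cells and at 81.6 CPM with PKF118-310 against 108 CPM in control TIB153 cells (−0.64 ± 0.14 SE, edgeR adjusted p = 0.0127). TRGC1, a γ-chain constant gene, held 22 counts with PKF118-310 against 129 in control CUTLL1 cells and 0 with PKF118-310 against 2 in control TIB153 cells, so its call rests on CUTLL1. TRBC2, the other β-chain constant gene, lay at 158 CPM with PKF118-310 against 176 CPM in control CUTLL1 cells and at 77.0 CPM with PKF118-310 against 66.9 CPM in control TIB153 cells, and did not pass (0.02 ± 0.13 SE, edgeR adjusted p = 0.948). TRBC1 and TRBC2 are near-identical, and their reads could be divided between them by the counting. TRBC1 took 79.3% (78.3 to 80.3) of their reads with PKF118-310 against 86.1% (85.4 to 86.8) in control CUTLL1 cells, and 51.4% (48.7 to 54.1) with PKF118-310 against 61.7% (59.0 to 64.3) in control TIB153 cells. TRAC, the α-chain constant gene that replaces PTCRA in the mature receptor, lay at 115 CPM with PKF118-310 against 227 CPM in control CUTLL1 cells, a ratio of −0.98 (−1.10 to −0.86). In TIB153 it lay at 13.9 CPM with PKF118-310 against 8.83 CPM in control cells, a ratio of 0.65 (0.21 to 1.11), and CUTLL1 control was 25.5-fold above TIB153 control. TRAC was thus lower in CUTLL1 and higher in TIB153 beyond counting error, as CD3D and CD5 were. TRGC2, the other γ-chain constant gene, held 18 counts with PKF118-310 against 43 in control CUTLL1 cells and 18 with PKF118-310 against 23 in control TIB153 cells, and TRDC held 0 counts in all 4 libraries.

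Of 22 genes of proximal TCR signaling, none fell and 2 rose across the lines in edgeR's quasi-likelihood test. The shares over all genes were 6.78% and 6.11%. The phosphatase gene PTPN22 rose (0.61 ± 0.15 SE, edgeR adjusted p = 0.0214). The median log2 ratio of this list was −0.04 in CUTLL1 and 0.10 in TIB153, beside −0.55 and −0.20 for the 10 genes above. The kinase gene LCK, which the coreceptors bind, lay at 501 CPM with PKF118-310 against 554 CPM in control CUTLL1 cells and at 932 CPM with PKF118-310 against 869 CPM in control TIB153 cells. ZAP70, the kinase that docks on ITAMs, lay at 345 CPM with PKF118-310 against 592 CPM in control CUTLL1 cells (ratio −0.78) and at 303 CPM with PKF118-310 against 281 CPM in control TIB153 cells (ratio 0.11). The genes called lower in CUTLL1 were the phosphatase gene PTPN6 (ratio −2.94, and −0.26 in TIB153) and the costimulatory receptor gene CD28 (−2.37, and −0.71 in TIB153). These were 2 of the 22, where 2.21% of all genes were called lower.

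Of 20 known regulators of these genes, 3 fell and 1 rose across the lines in edgeR's quasi-likelihood test. Over all genes tested, 6.78% fell and 6.11% rose. NOTCH3, TCF7 and NOTCH1 fell, by 1.38, 0.97 and 0.87 on the log2 scale (edgeR adjusted p = 0.00215, 0.0109 and 0.0185). TCF7 encodes TCF-1, a partner of β-catenin, and lay at 298 CPM with PKF118-310 against 766 CPM in control CUTLL1 cells and at 370 CPM with PKF118-310 against 554 CPM in control TIB153 cells. LEF1, which encodes another partner of β-catenin, did not fall. Its log2 ratios were 0.10 (0.06 to 0.15) in CUTLL1 and 0.11 (0.06 to 0.15) in TIB153. It did not pass edgeR's quasi-likelihood test (0.10 ± 0.13 SE, adjusted p = 0.636). MYB rose by 0.84 ± 0.19 SE on the log2 scale (edgeR adjusted p = 0.0221). Among the E protein genes and their inhibitor, TCF3 stood at 0.01 and 0.06 and TCF12 at 0.11 and 0.24 (log2 ratios in CUTLL1 and TIB153), while ID3 was called higher in CUTLL1 at 1.04 and stood at −0.06 in TIB153. RUNX3 was called higher in CUTLL1 at 1.34 and stood at 0.25 in TIB153. Of the 20 genes, these 2 were called higher in CUTLL1, where 4.80% of all genes were. NOTCH1, NOTCH3 and TCF7 were called lower there, 3 of the 20, against 2.21% of all genes. In TIB153, only MYB was called, 1 of the 20, as higher, where 5.47% of all genes were. ZBTB7B, on the same list, stood at 0.82 (0.18 to 1.52) in CUTLL1 and at 0.08 (−0.73 to 0.92) in TIB153. It held 58 counts with PKF118-310 against 30 in control CUTLL1 cells. Whether any of these bears on the 10 genes was not tested.

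Of 10 other T lymphoid surface marker genes, 7 were called lower in CUTLL1 and 1 in TIB153 (CD27, with 4 counts with PKF118-310 against 16 in control cells), against 2.21% and 2.12% of all genes, and the median log2 ratios were −1.26 and −0.25. This list shares CD28 and CD6 with the signaling list, and CD28 is among the 7. Across the lines, CD7 (−0.69 ± 0.13 SE) and CD1A (−0.79 ± 0.16 SE) fell in edgeR's quasi-likelihood test (adjusted p = 0.00582 and 0.0094), and none rose. Over all genes, 6.78% fell and 6.11% rose in it. CD1B, a lipid-presenting protein of cortical thymocytes, lay at 49.6 CPM with PKF118-310 against 170 CPM in control CUTLL1 cells, and at 17.7 CPM with PKF118-310 against 8.05 CPM in control TIB153 cells. It was the only gene of this list called higher in TIB153, where 5.47% of all genes were. CD1E and the interleukin 7 receptor gene IL7R were called lower in CUTLL1 (ratios −2.51 and −1.74) and stood at 0.02 and −0.31 in TIB153. Of 8 tested genes that neighbour these loci or bind their products, none was called across the lines in edgeR's quasi-likelihood test. VPS37C, beside CD5, was the only one called in a line, higher in TIB153, where 5.47% of all genes were. Its ratios were 1.10 in TIB153 and 0.48 in CUTLL1. The CD2 ligand gene CD58 stood at −0.48 and −0.52 in CUTLL1 and TIB153, with 45 and 58 counts in PKF118-310 and control CUTLL1 cells and 67 and 88 in PKF118-310 and control TIB153 cells. KMT2A and PTMS, near the CD3 and CD4 loci, stood at 0.44 and −0.15 in CUTLL1 and at 0.26 and −0.49 in TIB153.

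The genes with patterns nearest to PTCRA, CD3E and CD8A were found by Euclidean distance of centred log2 CPM over the 4 libraries, among 10016 genes with at least 10 CPM in 1 library or more. Among the genes nearest to PTCRA were ECI1 (distance 0.52) and CD109 (0.54). CD109 lay at 11.3 and 14.4 CPM in PKF118-310 and control CUTLL1 cells and at 2.50 and 2.08 CPM in PKF118-310 and control TIB153 cells. Nearest to CD3E were ATG4B (0.01), STXBP2 (0.02) and PUM2 (0.02). ATG4B lay at 105 and 112 CPM in PKF118-310 and control CUTLL1 cells and at 95.1 and 97.3 CPM in PKF118-310 and control TIB153 cells. Nearest to CD8A were RAG2 (0.15), EPHB2 (0.20) and HEYL (0.22). RAG2, a subunit of the recombinase that rearranges TCR genes, lay at 31.5 and 53.0 CPM in PKF118-310 and control CUTLL1 cells and at 7.14 and 11.2 CPM in PKF118-310 and control TIB153 cells. Among the 10 genes themselves, CD3D and CD5 were the closest pair (distance 0.49) and CD4 and CD2 the farthest (8.32). Likeness over 4 libraries is a description only.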

How the data were processed

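The authors deposited whole-number counts of reads per gene for each of 8 lane files, not normalized. The labels give poly(T) enrichment and a stranded mRNA kit, and HISAT2, HTSeq, DESeq2 and the build hg38 are listed in the submitters' processing notes; versions, counting parameters and the strand setting are not given in the sources used here. The deposited comparison tables hold the authors' fold changes and p-values and 8 count columns that match no sample title, and were not used.

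Lanes were summed to 4 libraries of 7609427 to 8140391 counts. Of 11796 genes with at least 80 reads, 99.5% matched GENCODE release 29, the source of positions and lengths. filterByExpr (treatment as group) kept 13280 genes. Ratios used TMM-scaled CPM with 0.5 counts added, and exact binomial intervals; a gene was called at 2-fold or more where its 95% interval excluded no change. Across lines, edgeR 4.0.16 (limma 3.58.1, R 4.3.3) fitted a robust quasi-likelihood model with cell line as a block, leaving 1 residual degree of freedom, so that its errors rest largely on the spread shared by all genes (median prior degrees of freedom 13.0). P-values were adjusted by Benjamini-Hochberg over all genes tested. DESeq2 1.42.0 was an alternative. The edgeR step was tested on simulated data with the same changes in both lines. That simulation cannot show how the step handles changes that differ between the lines. Levels carry exact Poisson intervals (SciPy 1.17.1). The edgeR p-values take the lines as replicates but rest little on a gene's own spread between them. The 2 lanes of a group were counted as 1 library because the labels call them technical replicates. The study's text names 2 control and 2 treated samples per line for these cells, which the labels do not separate into cultures.

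Besides the 10 genes, genes named from lists were those called, or up to 4 per list with the largest mean absolute ratio at 5 CPM or more; for PTCRA, CD3E and CD8A, the 3 nearest genes were named, and some listed or nearest genes are not reported here. LCK, ZAP70, LEF1, TCF3, TCF12, RUNX3, ZBTB7B, ID3, CD27, TRBC2 and TRDC were named outside that rule after their values were seen. The genes and lists were chosen with earlier results of these data known. The intervals of differences between the lines, and the total-count version of the counting-error counts, were added after seeing the data.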

Additional observations from a re-analysis of the deposited data

Results flagged for a closer look

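CD3D and CD5 stood out because each was lower with PKF118-310 in CUTLL1 and higher with PKF118-310 in TIB153, beyond counting error in both lines. The log2 ratio in CUTLL1 minus that in TIB153 was −0.54 for CD3D and −0.74 for CD5. The difference between the lines was not tested, since each group held 1 library, and the counting intervals hold no variation between cultures.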

How the results depend on the processing

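Of 150 alternative values of the genes' ratios within a line or between the control libraries, none changed the sign of a ratio whose interval excluded no change. Moves beyond counting error numbered 2, CD3E in TIB153 (0.05 from lane 2) and CD8B between the controls (1.62 from lane 1). Some ratios within counting error did change sign, among them CD4 (−0.35 from lane 2) and PTCRA (−0.03 from lane 1) in TIB153. At a 1.5-fold limit, 1260 genes were higher and 848 lower in CUTLL1, 1513 higher and 1303 lower in TIB153, and 1426 higher and 2013 lower between the controls; of the 10 genes, 1 was then lower in TIB153 and 2 were lower in CUTLL1 control than in TIB153 control. Across both lines, 812 genes rose and 900 fell in edgeR's quasi-likelihood test; 552 fell with total-count scaling and 592 on lane 2 alone. DESeq2's Wald test gave 194 that rose and 249 that fell. Without cell line as a block, 0 rose and 0 fell in edgeR (889 had unadjusted p under 0.05), and 0 of the 10 genes fell. Without a filter on low counts edgeR tested 26583 genes, of which 1118 rose and 1149 fell. Of the 10 genes, 5 fell without that filter and 1 in DESeq2's Wald test. Without the robust option 5 of the 10 genes fell, where 927 of the 13280 genes tested did. With either line left out, the value across lines is the ratio of the other line, with no test: CD3D ranged from −0.28 to 0.26, CD4 from −1.71 to 0.45, CD5 from −0.55 to 0.18 and PTCRA from −1.04 to 0.37. Coding length changed the order of levels per length; it was taken from GENCODE in place of RefSeq. The causes of these changes were not tested. The fits across lines pair PKF118-310 with control within each line. Beyond that, no paired analysis was possible because the labels give no replicate numbers and the lanes are parts of 1 library. Depth limits CD4, CD8A, CD8B and PTCRA in TIB153, with 20 to 51 counts a library.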
